A study of Mus musculus with 12 samples.

Results

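This comparison set the end of a differentiation protocol against its start: mouse embryonic stem cells of the W9.5 line on day 15 against the same line on day 0. Gene expression was read on Illumina expression BeadChip arrays, with 3 arrays labelled day 15 and 3 labelled day 0, out of 12 in a series that also sampled days 4 and 8. A gene belonged to the comparison when its probe was detected (detection p-value under 0.05) on all 3 arrays of day 0 or on all 3 of day 15, and 8921 of the 9657 genes tested did. Of these, 7427 qualified through both days, 440 through day 0 alone and 1054 through day 15 alone. All 12 arrays carry 1 treatment label, which names activin A, then retinoid acid (the labels' spelling of retinoic acid), then that acid with fibroblast growth factor, and pancreatic progenitor cells as the aim. Day 0 carries it too, no label says on which days an agent was present, and no untreated culture of the same age was analysed here. The labels do not say whether the 3 replicates of a day were separate cultures, so the p-values measure only the spread between these arrays.

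As background, mouse embryonic stem cells hold a pluripotent state through a network of transcription factors around Pou5f1, Sox2 and Nanog. Activin acts through the nodal pathway and is used to bring such cells to endoderm, the germ layer of gut, liver and pancreas. Retinoic acid patterns that endoderm along the body axis and supports the formation of the pancreas in the embryo. Stem cell cultures treated in this way commonly hold cells of several lineages side by side.

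From day 0 to day 15 the pluripotency genes fell, and most of the measured genes of extraembryonic endoderm (14 of 16), simple epithelium (12 of 14), neurons and glia (14 of 16), muscle (10 of 12) and gut, stomach, lung and thyroid (10 of 12) rose. Levels are log2 intensities after background correction and quantile normalization, and a gene was called changed at an adjusted p under 0.05 (limma's moderated test, Benjamini-Hochberg adjustment over all 9657 genes). Of the genes tested, 6523 were called changed (67.5%), with 3083 higher (31.9%) and 3440 lower (35.6%) on day 15. At least a 2-fold difference was called for 1652 genes that were higher (17.1%) and for 1392 that were lower (14.4%). Of the 8921 genes of the comparison, 3023 were higher and 3336 lower, 1651 and 1391 of them by at least 2-fold. The largest differences were mostly rises: 85 genes rose and 6 fell by at least 16-fold. The probe was undetected on all 3 arrays of day 0 and detected on all 3 of day 15 for 544 genes that were called higher, and the reverse held for 125 that were called lower. The median log2 difference over all tested genes was -0.11, and the median of a list of genes is best read against that value. Likewise, the counts of a list are best read against the 31.9% of all tested genes called higher and the 35.6% called lower. In cultures measured as a whole, fewer cells of a type and less RNA per cell cannot be told apart.

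**Figure D1:**
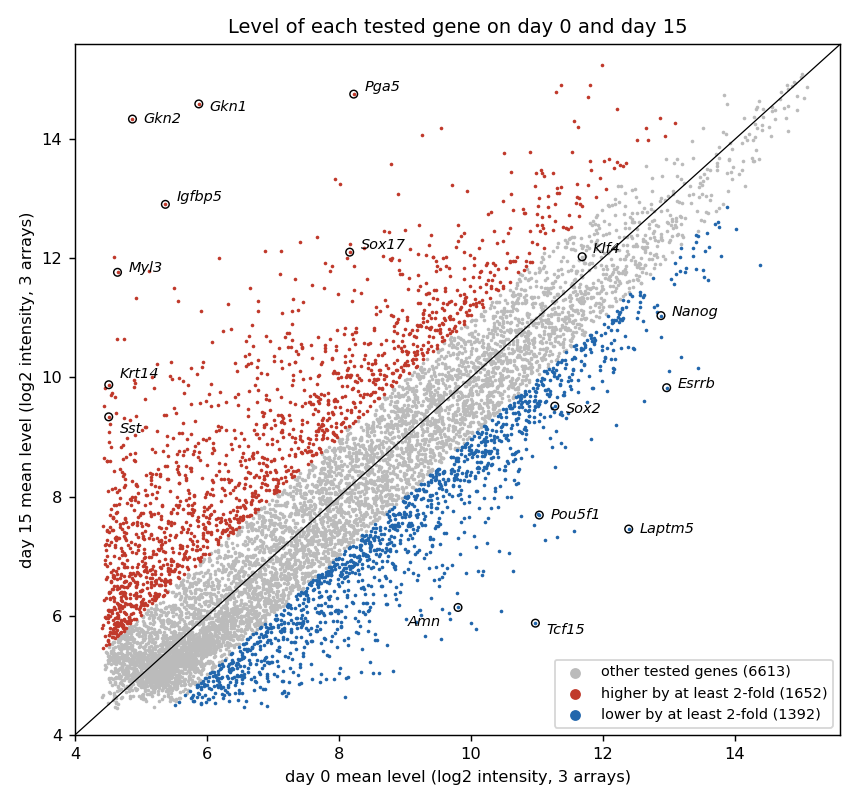
Mean level of each of the 9657 tested genes on day 0 (x axis) and day 15 (y axis), both as log2 intensity over 3 arrays, with the line of equal levels. Red points are the 1652 genes called higher by at least 2-fold, blue points the 1392 called lower by at least 2-fold, and circles mark genes named in the text; the rises reach farther from the line than the falls.

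On average 11602 ± 312 probes were detected on day 0 and 12401 ± 139 on day 15 (SD, n = 3 arrays each). The difference of 798.7 probes had an exact two-sided permutation p of 0.1, the smallest that 3 arrays against 3 allow. Arrays correlated at 0.987 to 0.991 within day 0, at 0.989 to 0.990 within day 15 and at 0.846 to 0.862 between the days. The label was checked against marker genes. All 5 stem cell markers (Pou5f1, Sox2, Nanog, Zfp42 and Esrrb) were detected on every array of both days, and their summed intensity on a linear scale went from between 21115 and 27462 on day 0 to between 3993 and 4825 on day 15. Of the 6 pancreatic progenitor markers on the array, 2 (Sox9 and Foxa2) were detected on all 3 arrays of day 15, and Pdx1, Ptf1a, Nkx6-1 and Mnx1 were detected on none. Markers of other lineages moved as well. The 7 mesenchyme markers, which also mark feeder fibroblasts, had a summed intensity between 1655 and 2236 on day 0, when 3 were detected on all 3 arrays, and between 13025.5 and 17035 on day 15, when 6 were. Most of this sum came from 1 gene, the smooth muscle actin Acta2. Its log2 levels were 10.57, 10.37 and 10.87 on day 0 and 13.45, 13.24 and 13.66 on day 15, so the sum says little about the other markers. The 4 basal epithelium markers went from between 94.6 and 97.0, with none detected, to between 1421 and 2405, with 3 detected on all 3 arrays and the other on some. Blood markers, 4 of 4, were undetected on every array of both days. The part that the mix of cell types has in the gene differences below was not tested.

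Several of the genes with the steepest rises encode secreted proteins. Gkn2 and Gkn1 are gastrokines, small proteins that the lining of the stomach secretes. Gkn2 lay at 4.82, 4.69 and 5.10 on the 3 arrays of day 0 and at 14.50, 14.30 and 14.22 on those of day 15. Its probe was undetected on day 0, so the day 15 level was at least 548-fold higher (log2 difference 9.47 ± 0.13, SE, adjusted p = 1.0e-18). Where a lower bound is given here and below, it was taken against the detection floor of the dimmer day, and the log2 difference beside it is the fitted one. Gkn1 went from 5.93, 5.55 and 6.15 to 14.64, 14.59 and 14.55, a 421-fold rise. Pga5, the precursor of a pepsin of the stomach, went from 8.18, 8.17 and 8.32 to 14.87, 14.72 and 14.68 (92.8-fold). For all 3 genes the days were separated by many times the spread between arrays. Igfbp5, a binding protein of insulin-like growth factors, lay at 5.28, 5.10 and 5.73 on day 0, where 1 of 3 arrays detected it, and at 12.76, 13.01 and 12.95 on day 15 (186-fold, 7.54 ± 0.18). Ttr, the plasma protein transthyretin that visceral endoderm and liver secrete, was undetected on day 0 and lay at 12.18, 11.70 and 12.19 on day 15, at least 110-fold higher.

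Muscle and vascular genes stood in the same group of steep rises. Myl3, a myosin light chain of heart and slow muscle, was undetected at 4.73, 4.67 and 4.52 on day 0 and lay at 11.98, 11.51 and 11.80 on day 15, at least 92.1-fold higher (7.12 ± 0.17, adjusted p = 1.6e-15). Acta1, the actin of skeletal muscle, rose 57.3-fold, from 6.17 ± 0.43 to 12.01 ± 0.20 (SD, n = 3). Flt1, a receptor for vascular endothelial growth factor that trophoblast also makes, rose by 6.68 ± 0.18 on the log2 scale, from 5.12 ± 0.13, where 1 of 3 arrays detected it, to 11.79 ± 0.37. Gdf9, a growth factor best known from oocytes, was undetected on day 0 and at least 68.5-fold higher on day 15, at 11.34 ± 0.16. The other large rises were in Fxyd3, a regulator of the sodium pump (64.2-fold, detected on 2 of 3 arrays of day 0), Capn6, a calpain without protease activity (52.9-fold), Wfdc1, a secreted protease inhibitor family member, and Tspan8, a surface tetraspanin (both at least 42.3-fold), Clu, the extracellular chaperone clusterin (42.0-fold), and Igfbp1 (at least 24.1-fold).

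The steepest falls included genes of the stem cell state and of growth factor signalling. Tcf15, a bHLH transcription factor of stem cells and mesoderm, lay at 11.08, 10.87 and 10.98 on day 0 and at 5.69, 5.98 and 5.95 on day 15, which is 34.3-fold lower (-5.10 ± 0.15, adjusted p = 1.9e-14). Laptm5, a lysosomal membrane protein best known from blood cells, went from 12.33, 12.40 and 12.44 to 7.03, 7.31 and 8.03 (30.6-fold lower). It was detected on all 6 arrays, and the day 15 arrays spread more widely than those of day 0. Etv4, an ETS factor induced by FGF, was 19.7-fold lower and Cbr3, a carbonyl reductase, 20.8-fold. Eras, a Ras protein of embryonic stem cells, fell 17.6-fold, and Robo4, a guidance receptor of endothelium, 17.3-fold. Tdgf1, the co-receptor of nodal, was 15.8-fold lower, Inhbb, a subunit of activin B, 15.3-fold, Dppa2 14.9-fold and Utf1 14.4-fold, the last of these a chromatin factor of pluripotent cells. Further large falls were in Ltbp4, which binds latent TGF-beta (13.4-fold, detected on 1 of 3 arrays of day 15), Ppm1j, a phosphatase (13.3-fold), Amn, a cofactor of the uptake receptor cubilin (12.7-fold), Nqo1, a quinone reductase (12.6-fold), and Hpdl (12.4-fold).

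**Figure D2:**
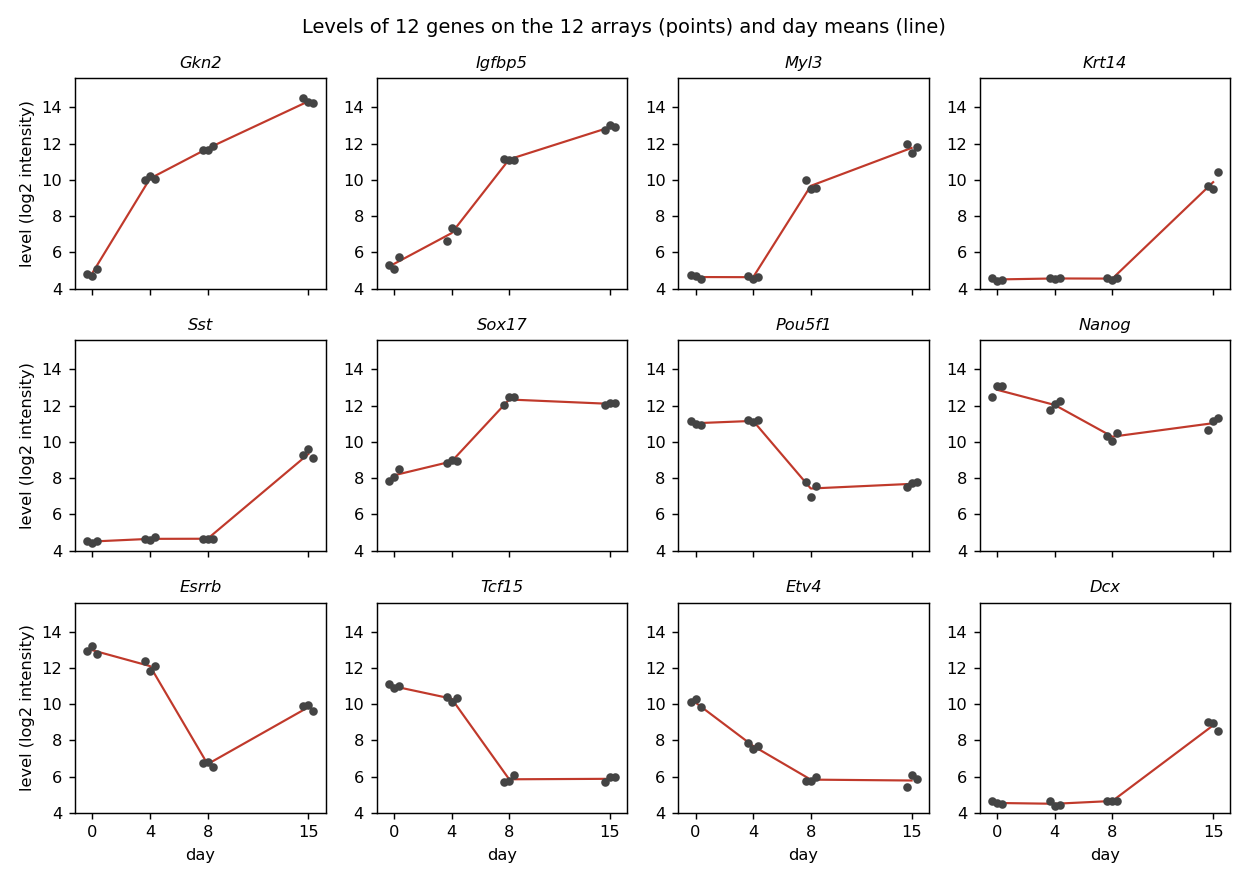
Levels of 12 genes (log2 intensity, y axis) by day (x axis), with 1 point per array, 3 arrays per day, and a line through the day means. Gkn2, Igfbp5, Myl3, Krt14, Sst, Sox17 and Dcx were higher on day 15 than on day 0, Pou5f1, Nanog, Esrrb, Tcf15 and Etv4 lower, and no point of day 15 overlaps the points of day 0 in any of the 12 panels.

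The pluripotency genes fell almost throughout. Of 25 measured, 23 were called lower, each by at least 2-fold, and 2 higher, and the median log2 difference was -2.49. Pou5f1, the central factor of pluripotency, lay at 11.16, 11.02 and 10.93 on day 0 and at 7.54, 7.72 and 7.81 on day 15, 10.2-fold lower (-3.35 ± 0.17, adjusted p = 1.5e-11). Nanog went from 12.46, 13.10 and 13.07 to 10.63, 11.15 and 11.33 (3.58-fold lower), and Sox2 from 10.87, 11.58 and 11.36 to 9.65, 9.40 and 9.50 (3.37-fold lower). All 3 were still detected on every array of day 15. Zfp42, a zinc finger marker of the naive state, was 7.22-fold lower, Esrrb, a nuclear receptor of that state, 8.80-fold, and Nr5a2, another nuclear receptor, 7.39-fold. Fgf4, the FGF ligand of stem cells, was undetected on day 15 and at least 2.02-fold lower.

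Klf4 and Dppa3 were the exceptions of this list. Klf4, a Kruppel-like factor that also works in gut and skin epithelium, lay at 11.51, 11.74 and 11.81 on day 0 and at 12.13, 11.98 and 11.97 on day 15, a 1.27-fold rise (0.34 ± 0.11, adjusted p = 0.012). That call was lost with median scaling between arrays (log2 difference 0.006), with the mean of all its probes (0.019) and without replicate 1 of day 0 (0.25) or of day 15 (0.29). Dppa3 lay near the detection floor, detected on 1 of 3 arrays of day 0 and all 3 of day 15. It was higher by 0.43 ± 0.15, a call lost without replicate 3 of day 0 (0.34) or replicate 2 of day 15 (0.34). Of the 8 tested genes of the primed, postimplantation epiblast, 3 were lower (Nodal 8.75-fold, Otx2 3.98-fold and the DNA methyltransferase Dnmt3b 2.67-fold) and 3 higher (Sall2 1.89-fold, Pou3f1 1.48-fold and Fgf5 at least 1.21-fold). In the primitive streak list, 3 of 7 were higher, Sp5 by 3.41-fold, and Eomes was 3.63-fold lower. The medians of these short lists, 0.04 and 0.49, changed sign under some settings.

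Genes of definitive endoderm rose in 11 of 13 cases and fell in 2, with a median of 2.04, against 31.9% of all genes called higher. Sox17, a master factor of endoderm, lay at 7.86, 8.09 and 8.53 on day 0 and at 12.04, 12.14 and 12.13 on day 15, a 15.4-fold rise (3.94 ± 0.16, adjusted p = 7.1e-13). The 3 arrays of each day lay close together and far from those of the other day. Foxa2, a pioneer factor that opens endoderm enhancers, was undetected at 4.65, 4.79 and 4.86 on day 0 and lay at 7.64, 7.77 and 7.31 on day 15, at least 5.04-fold higher (2.81 ± 0.17). Foxa3 rose 11.9-fold, Gata4 5.41-fold, Gata6 4.12-fold and Hnf4a, a nuclear receptor of liver and gut, 5.33-fold. Tmprss2, a membrane protease of epithelia, was at least 14.7-fold higher. The falls were in Hhex, a homeobox factor of the foregut (3.92-fold), and Trh, the gene of thyrotropin-releasing hormone (4.05-fold). A gene whose probe was detected on day 15 alone entered these lists through the day on which it was high, so the counts describe the measured genes and not every gene of a list.

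Extraembryonic endoderm, the yolk sac lineages that share many genes with definitive endoderm, had a median of 3.30, the highest of the 40 lists counted here. Of 16 genes, 14 were higher, all by at least 2-fold, and Amn was lower. Thbd, the thrombin receptor of parietal endoderm, went from 6.32, 6.90 and 6.75 on day 0 to 11.65, 11.43 and 11.42 on day 15 (28.7-fold). Afp, alpha-fetoprotein, was undetected on day 0 and lay at 8.84, 8.87 and 10.24 on day 15, at least 16.9-fold higher, with replicate 3 above the other 2. Pth1r, the receptor that drives parietal endoderm formation, rose 14.3-fold and the growth factor receptor Pdgfra 12.9-fold. The basement membrane that parietal endoderm lays down was represented by Col4a1 (11.7-fold), Col4a2 (9.57-fold), Lama1 (10.2-fold), Lamb1 (9.33-fold) and Lamc1 (6.75-fold). In the wider list of basement membrane and collagen genes 9 of 15 rose, Nid1, a linker of laminin and collagen IV, by 19.9-fold and Sparc by 12.5-fold, and Col9a3 and Col18a1 were 4.86-fold and 2.30-fold lower. Amn stood against its list at 9.97, 9.51 and 9.93 on day 0 and 6.12, 5.97 and 6.33 on day 15.

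Among genes of gut, stomach, lung and thyroid, 10 of 12 rose and none fell, with a median of 2.08. Beside the gastrokines, Tff1, a trefoil peptide of stomach mucus, was undetected at 4.46, 4.54 and 4.47 on day 0 and lay at 8.60, 8.44 and 8.78 on day 15, at least 10.3-fold higher. Muc13, a mucin of the gut surface, was at least 7.51-fold higher, and the trefoil peptide Tff3 at least 3.85-fold. Ihh, which signals through the hedgehog pathway, was higher by at least 3.62-fold. No call was made for Nkx2-1, a factor of lung and thyroid (-0.16 ± 0.15), or Vil1, the villin of gut microvilli (0.15 ± 0.16). Genes of liver and plasma were mixed: 7 of 15 were higher, 2 lower (Trf, the transferrin gene, and Apoe) and 6 not called, with a median of 0.39. Trf, detected on 1 of 3 arrays of day 15, differed by -1.60 ± 0.16 and Apoe by -0.38 ± 0.14. The Apoe call was lost without replicate 1 (-0.29) or 2 (-0.34) of day 0 or replicate 1 of day 15 (-0.33), which left 1 gene of the list lower. The rises were steep for F2, the prothrombin gene (3.87 ± 0.20, detected on 2 of 3 arrays of day 0), and Apoa2, an apolipoprotein (at least 6.66-fold).

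The pancreas was represented by factors it shares with other tissues. Of 21 progenitor genes on the array 12 were tested, and 9 of them rose and none fell (median 1.63). Without the filter on dim probes 9 of 21 were higher and the median was 0.15. Sox9, which marks pancreatic progenitors among other cells, lay at 6.68, 6.48 and 6.34 on day 0 and at 8.37, 8.67 and 8.73 on day 15, a 4.25-fold rise (2.09 ± 0.16, adjusted p = 2.3e-09). Rfx6, a transcription factor of endocrine precursors, stood at 6.17, 6.35 and 6.41 on day 15 and was undetected on day 0. Insm1, a factor of endocrine and neuronal precursors, was at least 2.38-fold higher, Prox1 2.88-fold and Isl1 2.21-fold. Pdx1, the factor that sets up the pancreatic bud, lay at 4.58, 4.44 and 4.38 on day 0 and at 4.63, 4.67 and 4.55 on day 15, undetected on all 6 arrays. Ptf1a, Nkx6-1 and Mnx1 were undetected on these arrays too. Neurod1 was detected on both days with a difference of 0.05 ± 0.19.

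Of the endocrine genes on the array 5 of 16 were tested, and 3 rose. Sst, the hormone somatostatin, which delta cells of the pancreas, stomach cells and neurons all make, was undetected at 4.52, 4.45 and 4.56 on day 0 and lay at 9.27, 9.64 and 9.11 on day 15, at least 17.1-fold higher (4.83 ± 0.15, adjusted p = 4.5e-14). Scg5, a chaperone of secretory granules, rose 3.71-fold and the granule protein gene Chgb at least 1.09-fold. Ins2, an insulin gene, lay near the floor at 5.59, 5.20 and 5.22 on day 0 and 5.12, 5.26 and 5.23 on day 15 (-0.14 ± 0.17, adjusted p = 0.50). In the exocrine and duct list 3 of 8 rose and 3 fell (37.5% each, against 31.9% and 35.6% of all genes). Clps, the cofactor of pancreatic lipase, went from undetected to 10.12, 9.73 and 9.38, at least 22.7-fold higher, and the elastase gene Cela2a was 3.79-fold lower. The median of the exocrine list was -0.24, and 0.01 with the mean of all probes; that of the endocrine list was 0.73, and -0.04 without the filter on dim probes.

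Retinoic acid reaches its nuclear receptors through binding proteins and is broken down by Cyp26 enzymes, which it induces. Of 14 genes of this response 11 were higher, each by at least 2-fold, and 3 lower, with a median of 2.24. Cyp26a1, the degrading enzyme most directly induced by the ligand, lay at 4.92, 4.98 and 5.33 on day 0, detected on 1 of 3 arrays, and at 9.05, 8.96 and 9.48 on day 15 (4.09 ± 0.17, adjusted p = 1.2e-12). Rarb, a receptor induced by its own ligand, went from 4.94, 5.41 and 5.54, detected on 2 of 3 arrays, to 6.96, 7.14 and 7.29 (3.56-fold). All day 15 arrays of both genes lay above all day 0 arrays. The binding proteins Crabp1 and Crabp2 rose 13.4-fold and at least 4.08-fold, Rdh10, which makes retinal, 10.1-fold, Cyp26b1 8.91-fold, and the homeobox factors Meis1 and Meis2 11.7-fold and 8.45-fold. Stra8, a target of retinoic acid in germ cells, was 9.37-fold lower, the receptor gene Rarg at least 4.35-fold and Hoxb1 by a log2 difference of -0.59 ± 0.20. The Hoxb1 call was lost without replicate 1 of day 0 (-0.52) or replicate 2 of day 15 (-0.33), which left 2 genes of the list lower. Promoters of Rarb and Cyp26a1 are shown because both are textbook targets of the ligand, and the motif was chosen with the levels known. The search was for GTTCA repeated after 6 intervening bases, on either strand, within 250 bases before and 50 after the start in RefSeq (GRCm38.p6). It was found in 2 of the 11 tested genes of this list that have a promoter there and in 0.0888% of 27025 genes. The match is in capitals, from 52 to 37 bases before the start in Rarb (chr14:16575491-16575550, minus strand) and from 32 to 17 in Cyp26a1 (chr19:37697754-37697807, plus strand), each printed 5′ to 3′ on its own gene's strand.
Rarb: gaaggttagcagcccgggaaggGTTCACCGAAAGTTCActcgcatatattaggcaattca
Cyp26a1: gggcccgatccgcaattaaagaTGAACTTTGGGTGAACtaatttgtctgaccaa
A match is a description of these letters and not a shown binding site.

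Of 26 Hox genes on the array, which mark position along the body axis, 14 were tested. Of these, 7 were higher (50%, against 31.9% of all genes) and 1 lower, Hoxb1, whose call rests on single arrays as given above. The median was 0.46. Without the filter on dim probes 9 of 26 were higher and the median was 0.07. Hoxb2 lay at 5.40, 5.16 and 5.28 on day 0, detected on 2 of 3 arrays, and at 8.43, 8.42 and 8.17 on day 15 (8.33-fold). Hoxc9 and Hoxb5 were undetected on day 0. On day 15 Hoxc9 was higher by at least 4.37-fold and Hoxb5 by at least 3.79-fold. Hoxb4 rose 2.68-fold and Hoxc6, detected on 2 of 3 arrays of day 0, 2.48-fold, whereas no call was made for Hoxa5 (-0.05 ± 0.15), Hoxb7 (0.07 ± 0.16) or Hoxb9 (0.02 ± 0.20).

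In the nodal and activin list 6 of 13 genes were called higher and 6 lower (46.2% each, against 31.9% and 35.6% of all genes). Among the higher calls 1, Acvr1b, depends on the probe. The ligand genes Nodal, Gdf3 and Inhbb, the co-receptor gene Tdgf1 and the inhibitors Lefty1 and Lefty2 were lower. The inhibitor Fst and the transducer Smad3 were among the higher genes. Nodal itself lay at 9.25, 9.12 and 9.30 on day 0 and at 6.18, 5.93 and 6.18 on day 15, 8.75-fold lower (-3.13 ± 0.14, adjusted p = 4.3e-12). Tdgf1 and Inhbb are given above, Gdf3 was 5.60-fold lower, and Lefty1 and Lefty2, feedback inhibitors of nodal, were 2.13-fold and 2.53-fold lower. Fst, follistatin, which captures activin, went from 5.43, 5.98 and 5.87 to 9.36, 9.76 and 9.53 (13.9-fold). Smad3, a transducer, rose 3.31-fold. The probe used for Acvr1b, an activin receptor, was undetected on day 0 and at least 8.10-fold higher on day 15, but another detected probe of the gene gave a log2 difference of -0.56, so the gene has no settled direction.

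Genes downstream of FGF and ERK fell in 11 of 17 cases and rose in 2, with a median of -1.11, against 35.6% of all genes called lower. Etv4 went from 10.11, 10.27 and 9.86 on day 0 to 5.41, 6.09 and 5.84 on day 15. The feedback inhibitor Spry4 was 9.66-fold lower, Etv5 5.11-fold, Etv1 3.98-fold, the immediate early gene Egr1 3.30-fold and the ERK phosphatase Dusp6 2.70-fold. Fgf8 was undetected on both days. The 2 rises were small, in Fgf5 and in the receptor Fgfr3 (at least 1.03-fold, detected on 2 of 3 arrays of day 15). The Fgfr3 call was lost without replicate 1 (0.46) or 3 (0.51) of day 0 or replicate 2 of day 15 (0.38).

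In the WNT and BMP list 9 of 17 genes were higher (52.9%, against 31.9% of all genes) and 3 lower (17.6%, against 35.6%). Bmp4, a BMP ligand, lay at 10.96, 11.08 and 10.99 on day 0 and at 7.60, 7.78 and 7.76 on day 15, 9.84-fold lower. Id1, a target of BMP, was 4.26-fold lower, whereas Id2, a relative, was 3.89-fold higher and the BMP antagonist Nog at least 2.01-fold. Tcf7l2, a transcription factor of the WNT pathway, rose 9.46-fold (3.24 ± 0.17), the ligand Wnt5a at least 4.29-fold and the antagonist Sfrp2 3.48-fold. Axin2, the usual readout of canonical WNT signalling, was not called (0.44 ± 0.20, adjusted p = 0.057), but was with the replicate block, a term for the replicate number (adjusted p = 0.025) and under 5 other settings. In the hedgehog and Notch list 7 of 12 rose (58.3%, against 31.9% of all genes) and 2 fell (16.7%, against 35.6%). Dlk1 rose by 21.2-fold and the Notch target Hey2 by at least 1.70-fold, and Notch1 was 1.39-fold lower.

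Imprinted genes are expressed from 1 parental allele, and many of them set fetal growth. Of 14 tested, 11 rose (78.6%, against 31.9% of all genes) and 3 fell (median 1.37). Igf2, the fetal growth factor, lay at 11.29, 11.34 and 11.24 on day 0 and at 14.79, 14.81 and 14.81 on day 15, an 11.4-fold rise with a narrow spread (3.51 ± 0.09, adjusted p = 4.0e-15). Cdkn1c, an inhibitor of cyclin-dependent kinases, rose by 4.09 ± 0.18 on the log2 scale, Dlk1 went from 5.46, 6.02 and 5.79 to 9.75, 10.52 and 10.21, and Ndn rose 5.80-fold. Phlda2, a placental growth inhibitor, was 5.71-fold lower. Of the genes of the IGF system, the binding protein gene Igfbp4 rose 4.23-fold and Igf2r, which clears Igf2, 2.09-fold. The protease gene Htra1 was 5.63-fold lower and Igfbp2 2.16-fold lower. No call was made for the receptor Igf1r (-0.03 ± 0.16).

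Of 22 muscle genes on the array 12 were tested, and 10 of them rose and none fell (median 1.77). Without the filter on dim probes 10 of 22 were higher and the median was 0.04. Of the 5 cardiac markers 3 were detected on all 3 arrays of day 15, and Nkx2-5 and Myh6 were undetected on every array. Besides Myl3 and Acta1, the troponin Tnnc1 rose 8.22-fold, Tnnt2 at least 4.29-fold, the natriuretic peptide gene Nppb at least 8.82-fold and the heart field factor Tbx5 at least 1.92-fold. Tnni3, the cardiac troponin I, was not called (-0.27 ± 0.14). Of 24 genes of mesenchyme and smooth muscle 17 rose and 1, Thy1, was lower (-0.55 ± 0.19). The Thy1 call was lost with median scaling (-0.45), without replicate 1 of day 0 (-0.43) and without replicate 3 of day 15 (-0.41). Col3a1, a fibrillar collagen, lay at 5.84, 6.45 and 6.78 on day 0 and at 10.45, 10.87 and 11.12 on day 15 (21.9-fold). Day 0 was the more variable of both days for this gene. Dcn and Lum, proteoglycans of connective tissue, rose 11.5-fold and at least 5.61-fold, and the smooth muscle actin Acta2 7.19-fold. Fn1 (-0.16 ± 0.22) and Prrx1 (0.01 ± 0.17) were not called.

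The endothelial list was divided, with 6 of 11 genes higher (54.5%, against 31.9% of all genes) and 3 lower (27.3%, against 35.6%). Its median of 0.76 was -0.02 without the filter on dim probes. Cdh5, the cadherin of endothelial junctions, was undetected at 5.03, 5.13 and 5.03 on day 0 and lay at 9.56, 9.18 and 8.77 on day 15, at least 15.2-fold higher. Tek, the angiopoietin receptor, was at least 4.17-fold higher and Ramp2 6.78-fold. Of the 4 endothelial markers, 2 (Cdh5 and Tek) were detected on all 3 arrays of day 15, and Kdr was undetected on every array. Pecam1 and Eng, which stem cells also express, fell by 1.55 ± 0.17 and by 1.26 ± 0.16 on the log2 scale, each detected on 1 of 3 arrays of day 15. Of 13 blood genes on the array 5 were tested, and Klf1, Tal1 and Spi1 were lower, by 2.38-fold, 2.13-fold and 1.52-fold. Of the others, 1 was called higher, by 0.55 on the log2 scale, a call lost under some settings, and 1 was not called.

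Of 22 neuronal and glial genes on the array 16 were tested, and 14 of them rose (87.5%, against 31.9% of all genes). Dcx, a microtubule protein of young neurons, was undetected at 4.63, 4.53 and 4.46 on day 0 and lay at 8.99, 8.95 and 8.53 on day 15, at least 11.99-fold higher (4.28 ± 0.15, adjusted p = 1.5e-13). Gap43, a protein of growth cones, went from 7.11, 7.14 and 7.17 to 11.20, 11.52 and 10.55 (15.4-fold), and the neurofilament gene Nefm was at least 8.29-fold higher. Stmn2 was 2.08-fold lower and Snap25, a synaptic protein, 1.33-fold, the latter a call lost without replicate 1 (-0.34) or 2 (-0.39) of day 0 or replicate 1 of day 15 (-0.37). For Elavl4, 6.08-fold higher, another probe of the gene gave -0.39 on the log2 scale, so its direction depends on the probe. Of the neural progenitor genes on the array 6 of 16 were tested and 4 rose, Irx3 by at least 10.7-fold and Zic1 by at least 11.2-fold. Their median was 0.99, and 0.06 without the filter on dim probes. Nr2f1, a nuclear receptor of forebrain and other tissues, rose 30.3-fold. Of 13 neural crest genes on the array 8 were tested, and 6 of them rose and none fell. The median was 1.27, and 0.32 without the filter on dim probes. The endothelin receptor gene Ednrb rose by at least 6.75-fold and Sox10 by at least 2.22-fold.

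Of the 12 keratin genes tested 8 were higher, 1 was lower and 3 were not called. In simple epithelium 12 of 14 genes were higher and 2 lower (median 1.44). Krt19, Krt7, Krt18 and Krt8 rose at least 10.6-fold, 18.5-fold, 16.7-fold and 11.2-fold, and Krt8 went from 8.93, 8.94 and 9.11 to 12.57, 12.50 and 12.35. The epithelial cadherin Cdh1, which stem cells already express, was 1.65-fold lower. In basal epithelium 7 of 9 were higher. Krt14, a keratin of the basal layer of skin and gland ducts, was undetected at 4.59, 4.45 and 4.50 on day 0 and lay at 9.67, 9.52 and 10.45 on day 15, at least 24.9-fold higher. Krt15 was at least 15.8-fold higher and Trp63, the factor that maintains basal cells, at least 4.12-fold, while Sfn was 1.90-fold lower. Of 15 trophoblast and placental genes on the array 10 were tested, and 7 of them were higher. The median was 1.67, and 0.19 without the filter on dim probes. Of the 6 trophoblast markers 3 were detected on all 3 arrays of day 15 and Plac1 on 1, and Elf5 and Tpbpa were undetected on every array. Ctsj, a placental cathepsin, went from undetected to 9.94, 9.72 and 9.35, at least 21.5-fold higher, and the placental prolactin Prl2a1 was at least 12.7-fold higher. Tfap2c, a factor of trophoblast and germ cells, was 1.43-fold lower.

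**Figure D3:**
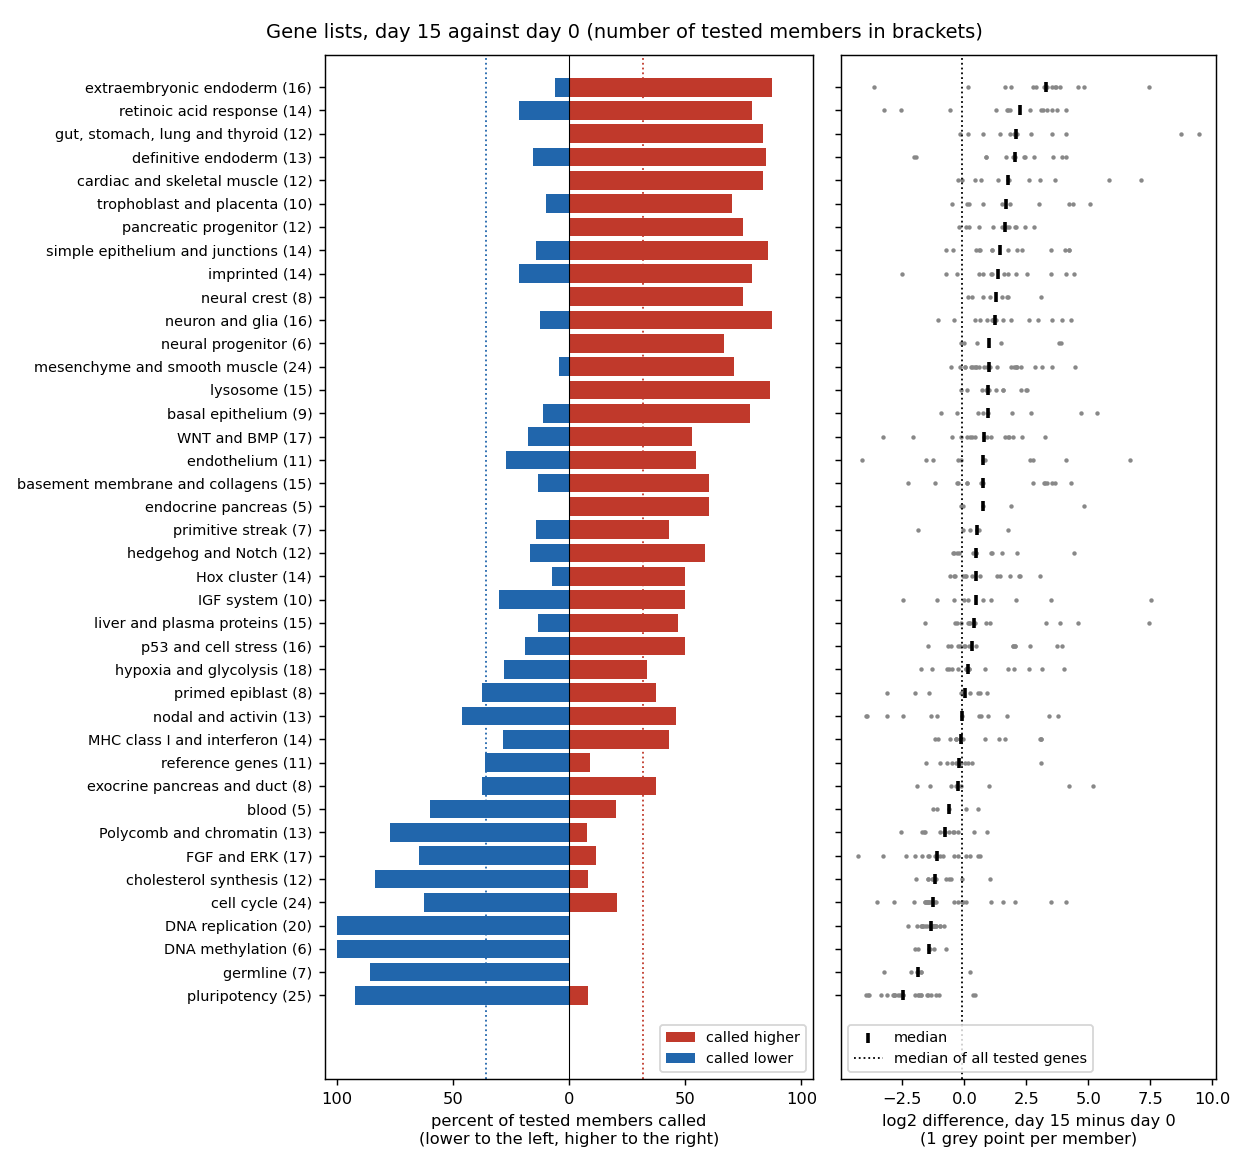
Left, percent of the tested members of each gene list called higher (red, to the right) or lower (blue, to the left) on day 15, with dotted lines at the 31.9% and 35.6% of all genes; right, the log2 difference of each member (grey points) with the list's median (black bar) and the median of all genes (dotted line). The lists run from extraembryonic endoderm, with the highest median at 3.30, to pluripotency, with the lowest at -2.49.

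Genes of proliferation fell together. All 20 tested genes of DNA replication were lower, 17 by at least 2-fold, with a median of -1.36. Mcm2, a subunit of the replicative helicase, lay at 11.18, 11.13 and 10.97 on day 0 and at 9.28, 9.33 and 8.90 on day 15 (3.79-fold lower), and Rrm2, the ribonucleotide reductase subunit, was 4.79-fold lower. Mcm7, Mcm5, Mcm6 and Cdc6 were 3.38-fold, 3.00-fold, 2.85-fold and 2.32-fold lower. In the cell cycle list 15 of 24 were lower and 5 higher. Cyclin E1, Ccne1, was 11.4-fold lower, the transcription factor gene Mybl2 7.19-fold and the mitotic activator Cdc20 4.06-fold. The rises were in the kinase inhibitors Cdkn1c, Cdkn1a (4.12-fold) and Cdkn2b (2.92-fold), in cyclin D2, Ccnd2 (11.2-fold), and in Cdk4 (2.11-fold, but -0.09 and not called with the mean of all its probes). For 4 of the replication genes the promoter letters are given because these genes are known targets of E2F factors and moved together. TTTCCCGC, on either strand, was in 3 of the 19 genes with a promoter (1.24% of 27025 genes), and TTTGGCGC in 3 of 19 (0.585%). The match is in capitals, and each sequence lies before its gene's start: Mcm7 at chr5:138172019-138172070 (minus strand), Cdc6 at chr11:98907991-98908042 (plus), Mcm5 at chr8:75109338-75109389 (plus), and 2 stretches of Mcm6 at chr1:128359786-128359837 and chr1:128359723-128359774 (minus).
Mcm7: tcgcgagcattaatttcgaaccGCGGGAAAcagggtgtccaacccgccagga
Cdc6: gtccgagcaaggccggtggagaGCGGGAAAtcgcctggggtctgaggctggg
Mcm5: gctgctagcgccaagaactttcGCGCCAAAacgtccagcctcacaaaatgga
Mcm6: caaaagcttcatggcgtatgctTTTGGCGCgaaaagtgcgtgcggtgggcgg
Mcm6: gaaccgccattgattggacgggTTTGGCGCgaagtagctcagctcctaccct
The motifs were chosen with the levels known.

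Genes of DNA methylation and of the germline fell with them. All 6 measured methylation genes were lower, the demethylase Tet2 by 4.04-fold, Dnmt3l by 3.62-fold, Uhrf1 by 2.65-fold and the maintenance enzyme Dnmt1 by 2.34-fold. Of the 7 germline genes, which DNA methylation silences in most body cells, 6 were lower and none higher, with Piwil2, a partner of piRNAs, 9.56-fold lower (detected on 2 of 3 arrays of day 15), Tex19.1 4.47-fold and Dazl 3.70-fold. Without the filter on dim probes 7 of the 15 germline genes on the array were lower. Among Polycomb and other chromatin genes 10 of 13 were lower. Jarid2, a guide of Polycomb repressive complex in stem cells, went from 9.03, 9.71 and 9.34 to 6.78, 6.68 and 6.96 (5.88-fold lower), Phc1 was 3.28-fold lower and the methyltransferase Ezh2 3.08-fold. Bmi1 was the gene called higher, by 1.88-fold, detected on 2 of 3 arrays of day 0.

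Metabolic groups moved in both directions. Cholesterol synthesis genes were lower in 10 of 12 cases (median -1.18), Mvd by 3.89-fold and Lss and Idi1 by 2.78-fold each, while Insig1, which restrains the pathway, was 2.05-fold higher and Hmgcs1 was not called (-0.11 ± 0.09), though with median scaling it was lower (-0.56). Lysosomal genes rose in 13 of 15 cases and none fell (median 0.96). Psap, the precursor of the saposins, went from 9.75, 9.86 and 9.92 to 12.52, 12.40 and 12.20 (5.76-fold), and the membrane protein Lamp2 rose 5.60-fold and the sialidase Neu1 4.91-fold. Ctsa was 1.87-fold higher by the probe used, and another probe gave a log2 difference of -1.301; the mean of both was not called. Hypoxia and glycolysis genes were divided about as all genes were. Of 18, 6 were higher (33.3%, against 31.9% of all genes) and 5 lower (27.8%, against 35.6%). Their median of 0.13 was -0.07 with median scaling. The rises were in targets such as P4ha1, a collagen prolyl hydroxylase (5.44, 5.32 and 5.36 on day 0 against 9.23, 9.37 and 9.52 on day 15), Ndrg1 (8.82-fold) and Vegfa (6.05-fold). Of the glycolytic enzymes, Pfkp was 2.48-fold lower and Gapdh 1.61-fold (14.50, 14.45 and 14.13 against 13.78, 13.92 and 13.33), and Ldha and Aldoa were not called.

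In the list of p53 and cell stress genes 8 of 16 were higher (50%, against 31.9% of all genes) and 3 lower (18.75%, against 35.6%). Several of the higher ones are known targets of ATF4, the factor of amino acid shortage and unfolded protein, and were picked out after their values were seen. Chac1, which degrades glutathione, lay at 7.84, 7.80 and 7.94 on day 0 and at 11.91, 11.60 and 11.88 on day 15 (15.3-fold), and Ddit3, a factor of the unfolded protein response, was undetected on day 0 and at least 10.4-fold higher. Atf3 was at least 4.19-fold higher, Trib3 4.06-fold, Atf4 3.89-fold and Asns, asparagine synthetase, 1.39-fold, a call lost with median scaling (0.14). Sesn2, another target of ATF4, was not called (-0.004 ± 0.20). The p53 targets Mdm2 (0.17 ± 0.11) and Ccng1 (-0.28 ± 0.19) were not called, though Ccng1 was with the replicate block (adjusted p = 0.036), with median scaling and without replicate 1 of day 0, and Gadd45a was 2.78-fold lower. Cdkn1a, the kinase inhibitor given above among the cell cycle genes and also a p53 target, was higher, so the p53 targets named here had no common direction. For the genes whose promoters hold TGATGNAA on either strand, where N is any base, 3 are printed so that the letters can be set beside the rises. The motif was in 4 of the 14 genes of the list with a promoter (Atf3, Trib3, Chac1 and Asns) and in 4.51% of 27025 genes. Atf3 is at chr1:191183414-191183465 (minus strand), Chac1 at chr2:119351027-119351078 (plus) and Asns at chr6:7693210-7693254 (minus), with the match in capitals.
Atf3: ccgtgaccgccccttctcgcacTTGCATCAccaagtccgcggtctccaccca
Chac1: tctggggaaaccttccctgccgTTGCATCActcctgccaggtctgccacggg
Asns: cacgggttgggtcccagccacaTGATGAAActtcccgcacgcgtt
This motif too was chosen with the levels known.

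The list of MHC class I and interferon genes was divided. Of 14, 6 were higher (42.9%, against 31.9% of all genes) and 4 lower (28.6%, against 35.6%). B2m, the light chain of MHC class I, lay at 9.18, 9.08 and 8.97 on day 0 and at 12.32, 12.28 and 11.90 on day 15 (8.51-fold), the heavy chain gene H2-K1 rose 8.52-fold and H2-T23 at least 5.27-fold. Tapbp (-0.06 ± 0.17) and Nlrc5 (-0.32 ± 0.16), which also serve antigen presentation, were not called. Ifitm2 and Ifitm1, interferon-induced membrane proteins, were 2.30-fold and 1.48-fold lower. The list's median was -0.12, and 0.38 at the stricter detection threshold of 0.01. Of 11 genes used as references for expression, B2m was the only one called higher, and Hprt (2.89-fold), Rplp0 (1.97-fold), Gapdh and Tbp (1.43-fold) were lower. Actb lay at 13.69, 13.85 and 13.93 on day 0 and at 14.10, 14.11 and 14.17 on day 15, which missed the threshold (0.30 ± 0.13, adjusted p = 0.052) and passed it under 7 settings, the replicate block among them (adjusted p = 0.0051). Eef1a1 differed by 0.03 ± 0.09, and was called lower with median scaling (-0.35).

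Changes reached the most abundant transcripts. By mean level over both days, the highest genes among the rises of at least 2-fold were Col4a2, Scd2, a fatty acid desaturase (2.82-fold), Copb2, a coat protein of Golgi vesicles (2.27-fold), Prr13 (2.92-fold) and the tetraspanin Cd81 (2.17-fold). Col4a2 went from 12.09, 11.89 and 11.99 to 15.25, 15.25 and 15.25. Among the falls they were the mismatch repair gene Msh6 (2.86-fold), Serbp1, an RNA-binding protein (2.35-fold), the tubulin Tubb4b (2.21-fold), Polr2e, a subunit of RNA polymerases (2.18-fold), and Ranbp1 of nuclear transport (2.03-fold). Of 924 genes with at least 2 called probes, 54 had probes called in opposite directions. The probes lay farthest apart for Dnaaf1 (4.06 and -0.43), Acvr1b and Jak2 (2.65 and -0.68), and no direction is given for these 3 genes.

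Most of the changes were past their midpoint by day 8. For each gene called by at least 2-fold, the first sampled day was taken whose mean lay past the midpoint between its day 0 and day 15 means. The rule did not ask that a gene stay past the midpoint, so a gene that moved back on day 8 could still count under day 4. Of the 1652 rises this was day 4 for 306 (18.5%), day 8 for 1084 (65.6%) and day 15 for 262 (15.9%). Of the 1392 falls it was day 4 for 247 (17.7%), day 8 for 1090 (78.3%) and day 15 for 55 (3.95%). Gkn2, Gkn1, Ttr and Pga5 were past the midpoint by day 4, Igfbp5, Myl3 and Flt1 by day 8, and Wfdc1, Acta1, Krt14 and Sst by day 15. Among the falls, Etv4, Inhbb and Bmp4 belonged to day 4, Tcf15, Laptm5 and Tdgf1 to day 8, and Hhex and Eomes to day 15. The gene lists differed in this respect. All 7 cholesterol synthesis genes that fell by at least 2-fold were past the midpoint by day 4, and 17 of the 23 pluripotency genes by day 8 but not by day 4. Of 11 neuronal genes that rose by at least 2-fold 9 were so only on day 15, as were 7 of 12 mesenchyme genes, whereas 6 of 9 genes of gut, stomach, lung and thyroid were by day 4.

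**Figure D4:**
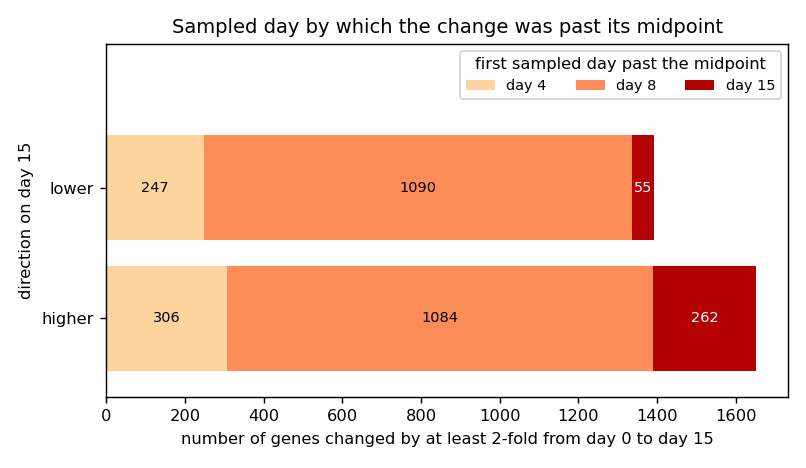
Number of genes changed by at least 2-fold from day 0 to day 15 (x axis), split by direction (rows) and by the first sampled day whose mean lay past the midpoint of the change (shades). Day 8 holds 1084 of the 1652 rises and 1090 of the 1392 falls, and day 15 holds 262 rises and 55 falls.

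A comparison of the end with the start misses genes that peaked or dipped between. Fgf5, a growth factor of the primed epiblast, was undetected on day 0, lay at 10.50 ± 0.12 on day 4 and 8.03 ± 0.30 on day 8, and was back at 5.51 ± 0.30 on day 15 (SD, n = 3). Lefty1 went from 8.05 ± 0.07 to 12.11 ± 0.14 on day 4 and ended at 6.96 ± 0.29. Fgf15, which the midgut secretes in the embryo, stood at 6.801 ± 0.41, 10.90 ± 0.01, 8.19 ± 0.38 and 6.38 ± 0.20 on the 4 days, and its ends did not differ by the test (-0.42 ± 0.21, adjusted p = 0.081), except with the replicate block (adjusted p = 0.027) and without replicate 1 or 2 of day 0. These 3 genes peaked on day 4, whereas both of the next peaked on day 8. Apoa2 reached 12.003 ± 0.15 on day 8 against 7.98 ± 0.35 on day 15. Apom, another apolipoprotein, reached 11.14 ± 0.35 on day 8, with 6.601 ± 0.29 at the start and 6.995 ± 0.35 at the end.

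Other genes dipped between the ends. Socs3, the feedback inhibitor of the LIF pathway that stem cell cultures depend on, lay at 10.94 ± 0.11, 6.16 ± 0.15, 10.44 ± 0.35 and 10.89 ± 0.33 on the 4 days, and its start and end differed by -0.06 ± 0.18 (adjusted p = 0.79). Klf4 dipped on the same day, to 9.17 ± 0.09. A further group was lowest on day 8 and stood higher on day 15 without reaching its day 0 level. Esrrb went through 12.97 ± 0.20, 12.09 ± 0.27, 6.68 ± 0.12 and 9.83 ± 0.16. Klf2, a factor of the naive state, ended at 8.49 ± 0.12 after 5.89 ± 0.06 on day 8, Gbx2, a homeobox factor under LIF, at 10.11 ± 0.25 after 7.40 ± 0.07, and Dnajc6, which uncoats clathrin vesicles, at 8.00 ± 0.13 after 5.21 ± 0.16, when it was detected on 1 of 3 arrays. For these 4 genes every array of day 15 lay above every array of day 8.

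**Figure D5:**
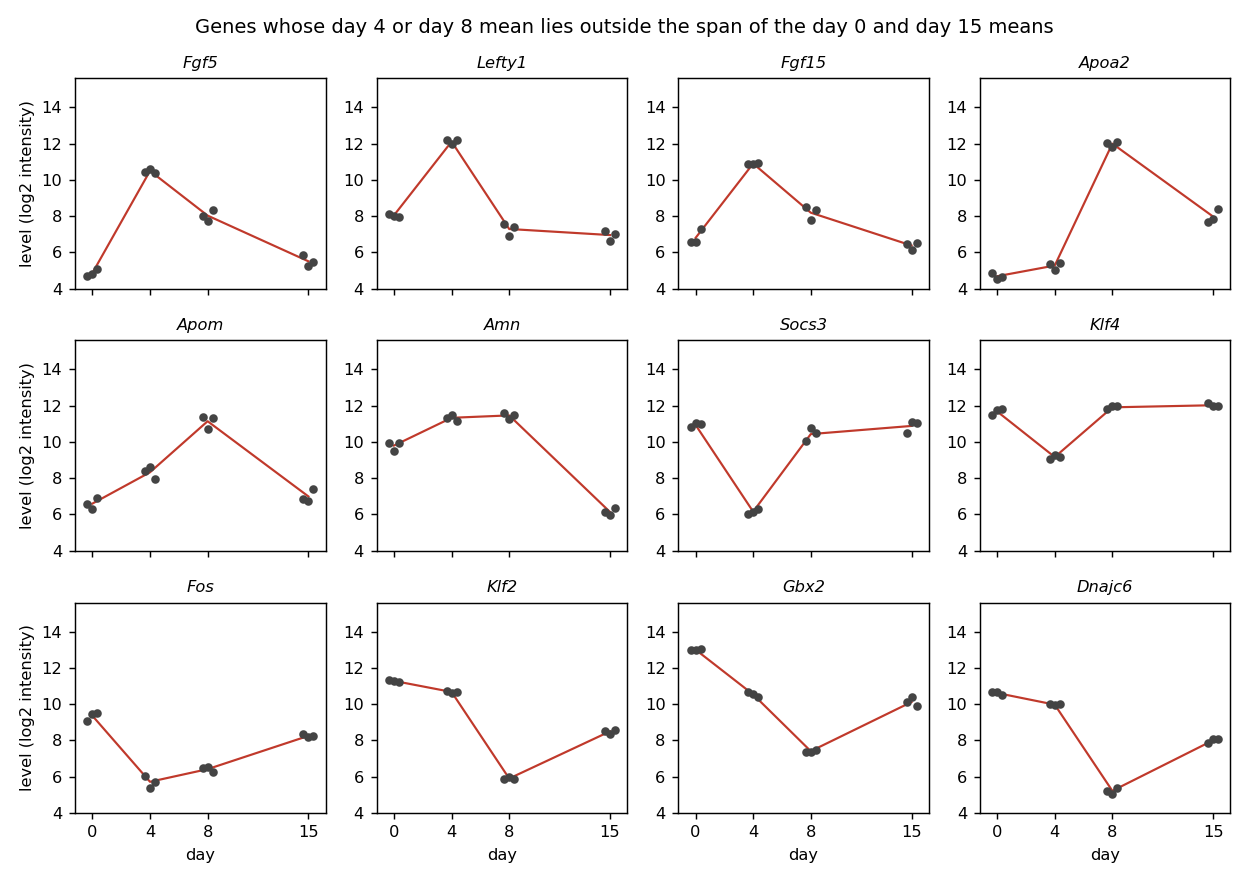
Levels of 12 genes (log2 intensity, y axis) by day (x axis), with 1 point per array, 3 arrays per day, and a line through the day means. Fgf5, Lefty1 and Fgf15 peak on day 4, Apoa2 and Apom on day 8, and Amn is high on days 4 and 8; Socs3, Klf4 and Fos dip on day 4, and Klf2, Gbx2 and Dnajc6 are lowest on day 8.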

How the data were processed

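The deposited scanner table holds, for 24613 probes on 12 arrays, an intensity that the authors neither background-subtracted nor normalized, per the file headers, and a detection p-value; for the authors' deposited value table of log2 intensities, the sources used here do not name the normalization. RNA was extracted with Trizol and labelled as biotinylated cRNA, per the labels' protocols. Background correction (offset 16) and quantile normalization used the neqc function of limma 3.58.1 (R 4.3.3), which took its negative control values from the detection p-values. Probes with a detection p under 0.05 on at least 3 of 12 arrays (13421) were kept, 11787 of them with 1 gene; of several probes the brightest on average represented the gene (9657 genes). Day 15 minus day 0 was a contrast in a limma fit of all 12 arrays by day, with 8 residual degrees of freedom and a variance trend. The number of arrays limits the precision.

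Detection floors lay between 5.04 and 5.33. A probe undetected on all 3 arrays of its dimmer day gave a lower bound; where it was detected on some of them and its mean lay under the floor, no fold was given. The genes named were the 15 largest rises and the 15 largest falls, the 3 largest changes of each of 40 gene lists, the 10 genes with the largest peak or dip on days 4 and 8, the 5 highest in each direction, the 3 with opposed probes, and fixed genes such as Pou5f1 and Actb; other list members were picked as examples after their values were seen. The lists, the comparison and the motifs were chosen with earlier results of these data known. Promoters came from RefSeq (GRCm38.p6).

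The labels give replicate numbers but do not say that arrays of the same number belong together. Deviations from the day means correlated at 0.41, 0.50 and 0.43 between day 0 and day 15 arrays of the same number and at -0.30 to -0.09 otherwise. The deviations within a day cancel out, so the negative values follow in part from the positive ones. The main fit had no term for the replicate number, and the replicate block was an alternative. In simulated data the fit called 17.9% of changes of 0.5 on the log2 scale, 80.6% of changes of 1 and 100% of changes of 2. Of its calls 2.94% were false. The simulated noise was independent between arrays, so it does not cover a link between arrays of the same number. Alternatives were other fits, scalings, filters and probe rules, and each array left out in turn.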

Additional observations from a re-analysis of the deposited data

How the results depend on the processing

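Over 17 alternative settings the number of genes called changed ran from 5040, with detection on all 12 arrays, to 7035, and from 6073 to 6220 with 1 array left out, against 6523. Genes higher by at least 2-fold numbered 1075 with detection on all 12 arrays, where fewer genes are tested. Genes lower by at least 2-fold numbered 899 in the authors' deposited value table, in which 186 rises and 139 falls were past their midpoint by day 4 and 22 falls only by day 15; the cause was not tested.

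With the replicate block 7035 genes were called. Of the genes named in the text, the fit with this block added the calls of Actb, Axin2, Ccng1 and Fgf15 and changed no other. Of 265 tested genes named, 239 were called, and 227 of them kept call and direction under every setting in which they were tested. Apoe, Asns, Cdk4, Ctsa, Dnaaf1, Dppa3, Fgfr3, Hoxb1, Klf4, Snap25 and Thy1 lost their calls under some, and 7 genes gained one under some (those 4, Eef1a1, Hmgcs1 and Nlrc5). Acvr1b reversed to -0.56 with detection on all 12 arrays, and Dnaaf1 to 1.81 with the mean of all probes; in both cases another probe of the gene enters. Of the 40 list medians 32 kept their sign under every setting. The exceptions were primed epiblast, primitive streak, endocrine and exocrine pancreas, endothelium, blood, MHC class I and interferon, and hypoxia and glycolysis. Signal near the detection floor limits the folds of genes undetected on 1 day.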

Other observations

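Some gene families, grouped after their values were seen, were mostly lower or mostly higher, and others were divided. Over all tested genes 35.6% were lower and 31.9% higher. Of 69 tested genes of mitochondrial ribosomal proteins, 58 were lower on day 15 and none higher (median log2 difference -0.74), and of 35 proteasome genes 29 were lower and none higher (-0.63). Nucleoporins, the proteins of the nuclear pore, were lower in 12 of 14 cases (-1.07), RNA polymerase subunits in 16 of 20 (-1.02), translation initiation factors in 32 of 46 (-0.64) and genes of mitochondrial import in 14 of 19 (-0.72). Cytosolic ribosomal protein genes were lower in 29 of 54 cases, with a smaller median of -0.26. Genes of the secretory route stood on the other side: Sec genes of vesicle coats and the translocon were higher in 16 of 23 cases (0.76) and Rab GTPases in 23 of 44 (0.35). Serpins, secreted protease inhibitors for the most part, were higher in 10 of 14 cases and none was lower (1.76), and keratins were higher in 8 of 12 cases and lower in 1 (3.77). The largest families went both ways, as all tested genes did. Of 195 solute carriers 77 were higher (39.5%) and 54 lower (27.7%), with a median of 0.07. Of 180 numbered zinc finger proteins 47 were higher (26.1%) and 63 lower (35%), shares not far from those of all genes, with a median of -0.08. Of 13 histone genes 10 were lower and 3 higher (-0.65).

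Olfactory receptor genes, which few tissues outside the nose express, were called lower about as often as all genes, but none was called higher. Of 156 tested, 56 were lower (35.9%, against 35.6% of all genes) and none higher (against 31.9%), with a median log2 difference of -0.32, on probes close to the detection floor. Of 2083 other genes in the same range of levels, 612 were lower and 563 higher, with a median of -0.14. Over the alternative settings the olfactory receptors called higher numbered 0 or 1, the 1 without the filter on dim probes, and those called lower between 32 and 71.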
